A study of Mus musculus with 62 samples.

Results

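Interferon-stimulated genes are the antiviral and immune genes that cells switch on after interferon binds its receptors. A fixed list of 34 of them was followed in the brown adipose tissue of mice, a heat-producing fat depot, across all 12 sample groups of a melanoma cachexia study. All 34 were found by symbol among the 47643 gene symbols of the deposited table. Of these, 32 passed the filter on low values (at least 1 TPM in at least 5 of the 62 libraries), which 12581 symbols passed in all. Zbp1, a sensor of Z-form nucleic acid, and Ifi44 did not pass, with group means of at most 1.03 and 0.570 TPM, and were not tested. No member was chosen by its values here, but the list was drawn up with earlier results of these data known.

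The study has 3 arms. CAC mice received melanoma cells described as cachectic, NCAC mice received melanoma cells described as non-cachectic, and Con mice were mock injected; the labels give no name for either cell line. All mice were female and 2 months old, and brown fat was taken 2, 4, 6 and 8 weeks after injection from 5 biological replicates per group, or 7 for CAC at 8 weeks. The sample labels name C57BL6/J mice and the series text names NCI Ath/nude mice, which lack T cells, so the host's strain and its immune cells are not settled by these sources. In every library the T cell markers were near 0: none of 11 passed the filter and none exceeded 1.44 TPM. Values are TPM, transcript abundances with a fixed total per library, which are scaled for transcript length and library size and keep no read counts, so depth is unknown. Each library had 10851 to 12347 genes at 1 TPM or more, and transcripts of the mitochondrial genome took 39.6% to 66.1% of the TPM total. Differences are given on the log2(TPM + 1) scale, which understates changes of genes with low values. The transcripts of brown adipocytes were present throughout, with Ucp1 at 3061 ± 1209 TPM (SD, n = 7) in CAC, 6263 ± 2693 TPM (n = 5) in NCAC and 5062 ± 532 TPM (n = 5) in Con at 8 weeks.

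Type I interferons act through the receptor chains Ifnar1 and Ifnar2 and the kinases Jak1 and Tyk2, which phosphorylate STAT proteins such as Stat2. With Irf9 these form a complex that binds the interferon-stimulated response element, while interferon gamma acts through Ifngr1 and Ifngr2 and a different DNA element. The induced proteins sense foreign nucleic acid, block viral entry or replication, and amplify or end the signal, and many of the genes are also active at a low level without infection.

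The response element was looked for in the promoter windows of RefSeq (build GRCm38.p6, 250 bases before to 50 after each start), which held 26 of the 34 members. The core of the element, GAAA and GAAA with any 2 bases between them, was searched on both strands, and the core of the interferon gamma element, TTC and GAA with any 3 bases between them, was counted in the same way. The first was found in 17 of the 26 members (65.4%), against 3.99% of all 27025 genes with a window. The second was found in 8 of 26 (30.8%), against 9.55% of all genes. Among the members higher in CAC than in Con at 8 weeks, 7 of 11 with a window held the first core, and among the other members 10 of 15. Of those 7, 5 are printed 5′ to 3′ on the strand of the gene, in the order of their difference at 8 weeks. They show where the element lies in members higher in CAC than in Con. Capitals mark the match, which reads TTTC and TTTC with 2 bases between where it lies on the opposite strand. The windows are Ifitm2 (chr7:140955912-140956211, minus strand), Ifitm3 (chr7:141010695-141010994, minus strand), Trim30a (chr7:104465144-104465443, minus strand), Stat2 (chr10:128270248-128270547, plus strand) and Gbp2 (chr3:142620413-142620712, plus strand).
Ifitm2: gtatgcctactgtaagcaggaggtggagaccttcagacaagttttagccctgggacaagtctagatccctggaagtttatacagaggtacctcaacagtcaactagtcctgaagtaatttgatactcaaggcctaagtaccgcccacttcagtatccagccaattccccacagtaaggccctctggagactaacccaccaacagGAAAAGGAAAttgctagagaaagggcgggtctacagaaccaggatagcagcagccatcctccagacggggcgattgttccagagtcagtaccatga
Ifitm3: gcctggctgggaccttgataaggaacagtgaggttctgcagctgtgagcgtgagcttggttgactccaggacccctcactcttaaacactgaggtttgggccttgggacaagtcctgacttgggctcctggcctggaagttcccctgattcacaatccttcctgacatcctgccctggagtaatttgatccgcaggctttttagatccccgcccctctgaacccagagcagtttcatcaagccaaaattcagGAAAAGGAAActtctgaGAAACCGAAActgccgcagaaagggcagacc
Trim30a: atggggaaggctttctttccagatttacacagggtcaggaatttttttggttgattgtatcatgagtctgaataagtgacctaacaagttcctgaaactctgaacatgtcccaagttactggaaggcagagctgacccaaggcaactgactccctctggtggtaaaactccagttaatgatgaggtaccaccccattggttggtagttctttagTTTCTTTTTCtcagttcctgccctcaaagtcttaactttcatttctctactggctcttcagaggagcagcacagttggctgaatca
Stat2: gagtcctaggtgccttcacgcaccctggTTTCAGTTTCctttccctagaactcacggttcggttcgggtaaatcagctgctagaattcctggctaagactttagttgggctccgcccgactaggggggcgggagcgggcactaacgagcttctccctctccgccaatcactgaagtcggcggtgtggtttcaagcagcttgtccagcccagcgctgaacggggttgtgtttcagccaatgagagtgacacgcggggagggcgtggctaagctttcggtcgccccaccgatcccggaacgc
Gbp2: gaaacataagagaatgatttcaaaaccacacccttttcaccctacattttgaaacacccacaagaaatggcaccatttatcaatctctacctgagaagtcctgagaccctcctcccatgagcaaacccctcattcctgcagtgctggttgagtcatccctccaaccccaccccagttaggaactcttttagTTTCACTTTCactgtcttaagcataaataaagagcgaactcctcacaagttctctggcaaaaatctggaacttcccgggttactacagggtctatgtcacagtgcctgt
Counted from the start site of each RefSeq window, the match starts 46 bases before it in Ifitm2, 36 in Trim30a, 59 in Gbp2 and 222 in Stat2. Both matches of Ifitm3 lie just after that site. The gene positions given below are from another annotation, and their starts can differ. There the Stat2 gene starts at 128270559, past the end of its window, and the Gbp2 gene at 142620602, inside its window. Ifitm1 was higher in CAC as well, and its window held no match. A match of letters is a description and not evidence of binding.

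CAC brown fat held more transcript of part of the list late in the course. At 8 weeks 13 of 32 tested members were higher in CAC than in Con and 0 were lower, which is 40.6% of the members against 52.1% of all tested genes that were higher there. As a group the members were therefore called no more often than other genes, and their median log2 difference of 0.30 stood close to the 0.28 of all genes. Against NCAC at 8 weeks the same counts were 13 and 0, against 37.3% of all genes, with a median of 0.37 where all genes had 0.21. The comparisons with Con and with NCAC share the CAC libraries. The size of the difference from Con varied between and within roles: its median was 1.11 for the 4 membrane restriction factors (0.42 to 1.49), 0.62 for the 4 transcription factors (0.31 to 1.10), 0.20 for the 7 effectors on viral RNA and replication (-0.14 to 1.27) and -0.03 for the 2 genes of the ISG15 system (-0.18 to 0.12).

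**Figure D1:**
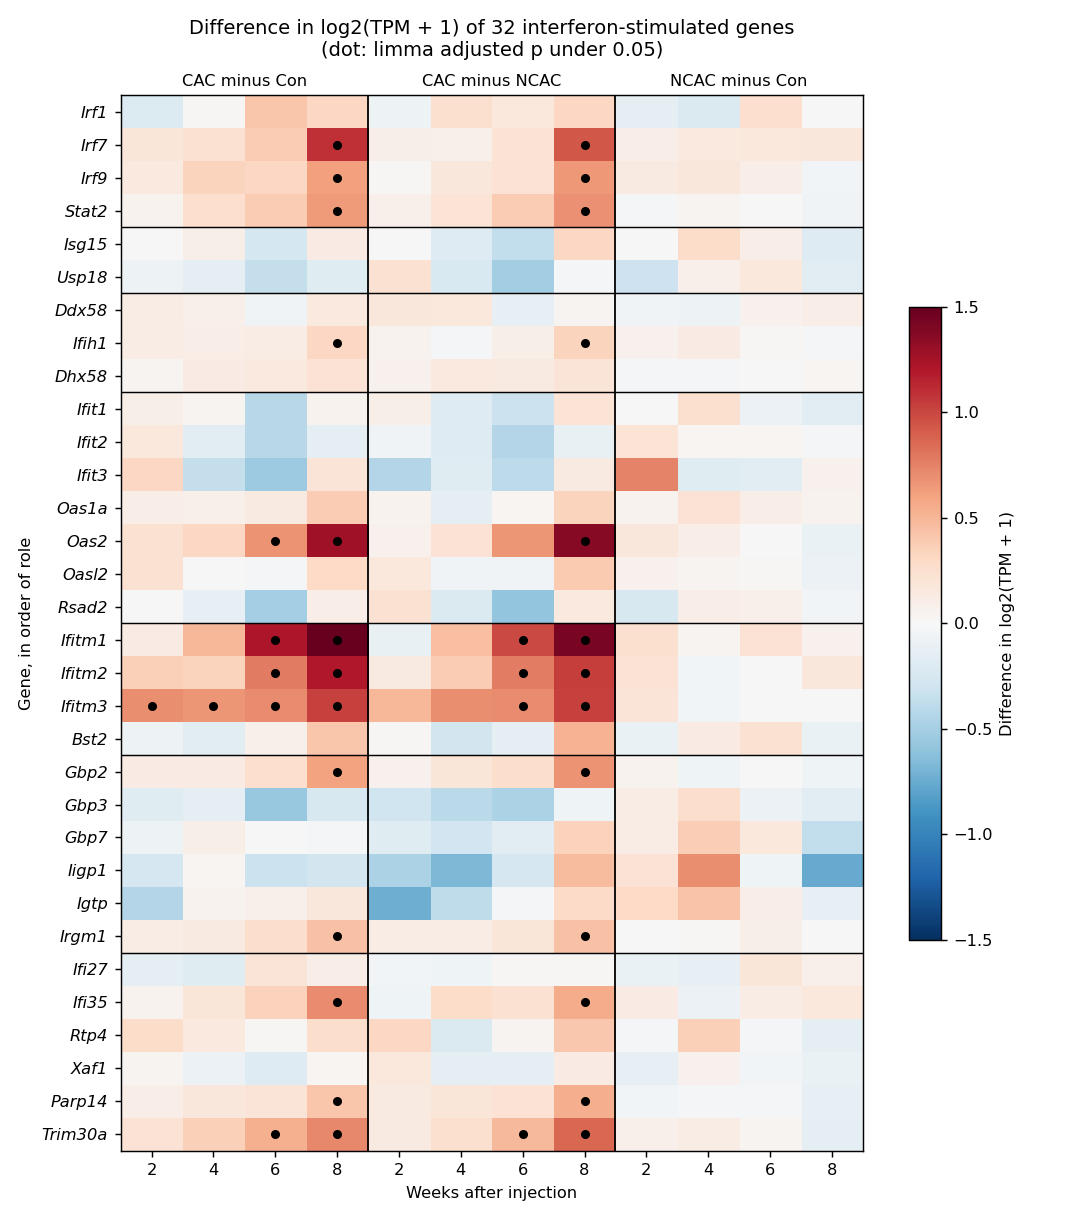
Difference in log2(TPM + 1) of the 32 tested members (rows, in order of role) between arms at 2, 4, 6 and 8 weeks (columns), with red for higher and blue for lower in the arm named first and a dot where limma's adjusted p was under 0.05. Dots are frequent at 8 weeks in CAC minus Con and CAC minus NCAC (13 each), and NCAC minus Con has none.

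All genes together were shifted upward in CAC at 8 weeks. Transcripts of the mitochondrial genome took 44.3% to 55.6% of that total in CAC at 8 weeks, 56.0% to 61.99% in NCAC and 59.9% to 65.5% in Con; its part in the shift was not tested. After median-of-ratios rescaling the median of all genes was -0.01 against both Con and NCAC. On that scale 7 members were higher and 2 lower than in Con at 8 weeks, where 13.4% of all genes were higher and 13.1% lower, and 10 were higher and 1 lower than in NCAC, where 12.7% were higher and 11.9% lower. The median of the members was then 0.06 against Con and 0.19 against NCAC. At 8 weeks Irf7, Oas2, Ifitm1, Ifitm2, Ifitm3 and Trim30a passed in both comparisons on TPM, after rescaling, under quantile normalization and with mitochondrial transcripts removed. Against Con the other 7 calls, those of Ifih1, Gbp2, Stat2, Irgm1, Ifi35, Irf9 and Parp14, ended with mitochondrial transcripts removed (adjusted p = 0.0608 to 0.722). With that removal 10.1% of all genes were higher than in Con and 10.3% higher than in NCAC, where 52.1% and 37.3% were on TPM. Of the 14181 genes tested with that removal, 2188 were lower than in Con and 1852 lower than in NCAC. Under quantile normalization 12.4% and 11.3% of all genes were higher, and 1932 and 1731 of 12581 genes were lower. Which members were called lower in these settings is not given here.

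**Figure D2:**
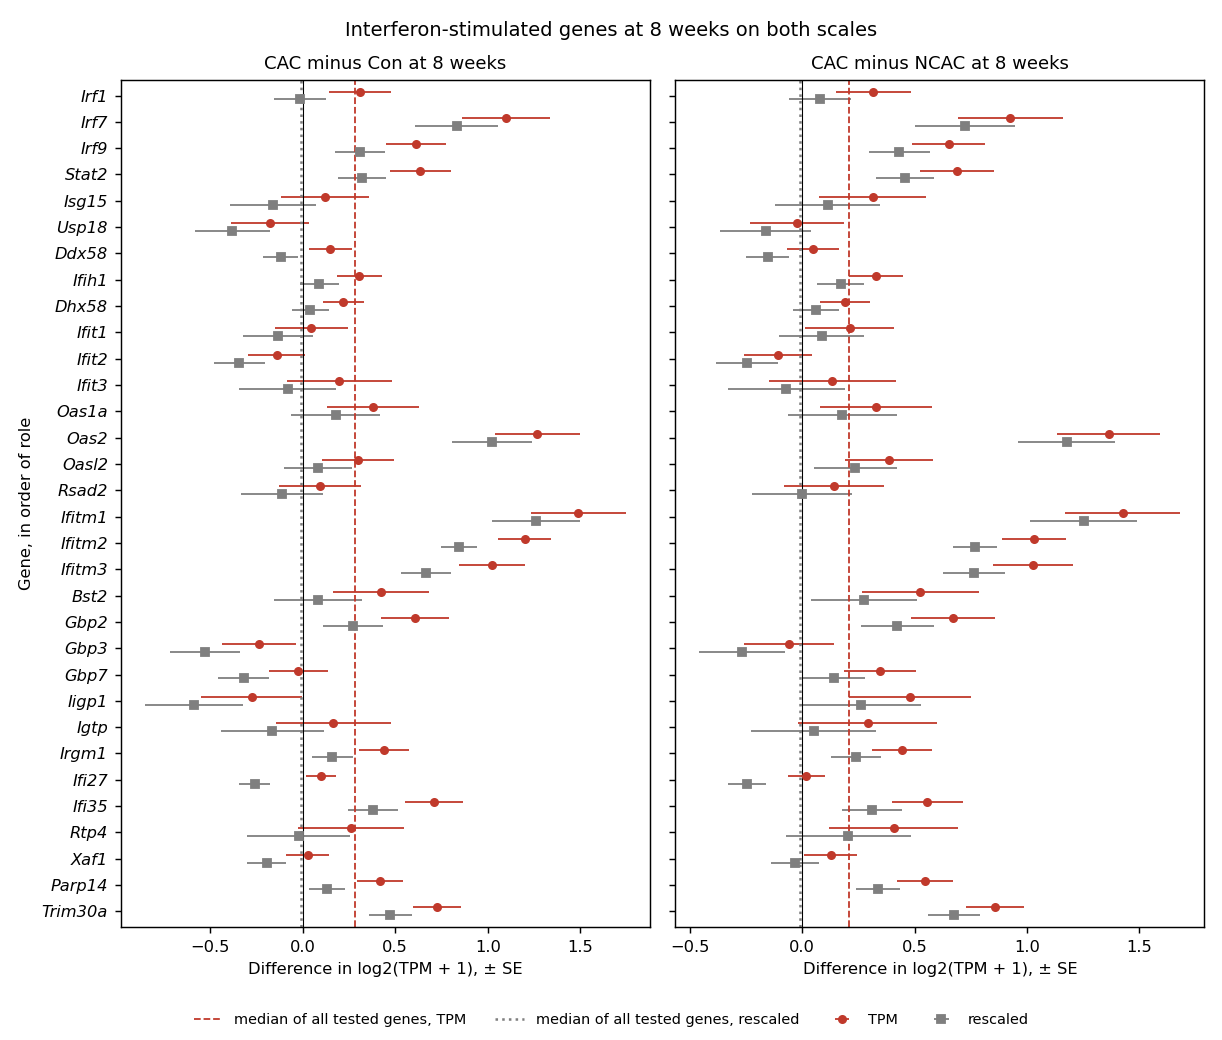
Difference in log2(TPM + 1) with its SE for each tested member (rows, in order of role) at 8 weeks, CAC minus Con on the left and CAC minus NCAC on the right, on TPM (red circles) and after rescaling (grey squares). Vertical lines mark the median of all tested genes on each scale; Irf7, Oas2 and the 3 Ifitm genes lie far to the right of both lines, and members such as Isg15, Ifit1 and Rsad2 lie to the left of the TPM line against Con.

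Among the 4 transcription factors of the pathway, Irf7, Irf9 and Stat2 were higher in CAC than in Con at 8 weeks. Irf7, which drives interferon genes and is itself induced by interferon (chromosome 7, 141262706 to 141266481), ranged from 3.16 to 7.82 TPM with a median of 5.01 TPM in the 7 CAC libraries, against 1.398, 2.32, 2.07, 2.41 and 3.501 TPM in the 5 NCAC libraries and 2.07, 2.07, 1.94, 1.78 and 1.695 TPM in the 5 Con libraries. Every CAC library was above every Con library, while 5 of the 7 were above every NCAC library. The log2 difference was 1.10 (SE 0.24, adjusted p = 0.000157) against Con and 0.93 (SE 0.24, adjusted p = 0.00177) against NCAC, by limma with Benjamini-Hochberg adjustment over all tested genes. Rescaled, the difference from Con was 0.83 (adjusted p = 0.00406).

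Stat2 (chromosome 10, 128270559 to 128292849), the subunit of the complex used by type I but not type II interferon, ranged from 5.56 to 14.1 TPM with a median of 7.15 TPM in CAC, against 4.16, 5.15, 4.29, 4.88 and 6.25 TPM in NCAC and 5.61, 5.46, 4.89, 4.41 and 5.36 TPM in Con. All but the lowest CAC library lay above every Con library. Its difference was 0.63 (SE 0.16, adjusted p = 0.00131) from Con and 0.69 (SE 0.16, adjusted p = 0.000951) from NCAC. Irf9 (chromosome 14, 55603571 to 55610030), which gives that complex its DNA contact, ranged from 3.96 to 8.67 TPM with a median of 6.64 TPM in CAC, against 3.005, 3.61, 3.42, 2.803 and 5.66 TPM in NCAC and 4.27, 3.401, 3.56, 3.25 and 4.33 TPM in Con. Again the lowest CAC library alone overlapped Con, and in NCAC library 5 stood above the rest. The difference was 0.61 (SE 0.16, adjusted p = 0.00162) from Con and 0.65 (SE 0.16, adjusted p = 0.0014) from NCAC. After rescaling neither passed against Con, with 0.32 (adjusted p = 0.055) for Stat2 and 0.31 (adjusted p = 0.083) for Irf9, while both passed against NCAC. Irf1, a transcription factor induced most strongly by interferon gamma, did not pass at any week; its difference from Con at 8 weeks was 0.31 on TPM and -0.01 after rescaling.

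Neither gene of the ISG15 system passed in any comparison. Isg15, a ubiquitin-like protein and one of the most strongly interferon-induced transcripts, ranged from 2.22 to 10.5 TPM with a median of 3.699 TPM in CAC at 8 weeks, against 2.43, 4.07, 1.98, 3.14 and 5.34 TPM in NCAC and 4.46, 5.12, 3.24, 3.53 and 3.18 TPM in Con. CAC overlapped both other arms, with 2 CAC libraries above all of Con and 2 below it. The difference was 0.12 (SE 0.24, adjusted p = 0.69) from Con. Usp18, the protease that removes Isg15 and damps the receptor, differed by -0.18 (SE 0.21, adjusted p = 0.482). Isg15, and Ifit3 and Rsad2 among the effectors, were chosen for library values after they had been seen, as members that did not pass.

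Of the 3 tested sensors of nucleic acid, Ifih1, the sensor of long double-stranded RNA, was called at 8 weeks. It ranged from 1.15 to 2.14 TPM with a median of 1.801 TPM in CAC, against 0.862, 1.19, 1.21, 1.03 and 1.65 TPM in NCAC and 1.202, 1.25, 1.195, 1.22 and 1.17 TPM in Con. The Con libraries were nearly equal, and 1 CAC library lay below and 6 above all of them. The difference was 0.31 (SE 0.12, adjusted p = 0.0287) from Con and 0.33 (SE 0.12, adjusted p = 0.0261) from NCAC, and 0.09 from Con after rescaling (adjusted p = 0.558). The call against Con ended when CAC library 5 or 7, or Con library 1 or 5, was left out (adjusted p = 0.0513 to 0.0626), and that against NCAC when CAC library 5 or 7, or number 1 or 4 of NCAC, was left out (adjusted p = 0.0518 to 0.0988). Ddx58, the RIG-I sensor, and Dhx58, its regulator, differed from Con by 0.15 (SE 0.12, adjusted p = 0.276) and 0.22 (SE 0.11, adjusted p = 0.0888).

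Among the 7 effectors on viral RNA and replication Oas2 stood alone. Oas2 makes the 2-5A messenger that activates RNase L (chromosome 5, 120730333 to 120749853). It ranged from 2.13 to 7.25 TPM with a median of 4.39 TPM in CAC at 8 weeks, against 0.729, 1.37, 0.308, 1.03 and 2.11 TPM in NCAC and 1.24, 1.18, 1.198, 1.08 and 1.13 TPM in Con. All 7 CAC libraries were above every NCAC and every Con library, the lowest CAC library only just above NCAC library 5. The difference was 1.27 (SE 0.23, adjusted p = 1.57e-05) from Con and 1.36 (SE 0.23, adjusted p = 7.24e-06) from NCAC, and 1.02 (adjusted p = 0.000291) from Con after rescaling. Its relatives Oas1a and Oasl2 differed from Con by 0.38 (SE 0.25, adjusted p = 0.191) and 0.30 (SE 0.20, adjusted p = 0.189); the Oas genes are close paralogs, so reads may be divided between them with error.

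The Ifit genes, whose proteins bind viral RNA lacking the host cap, and Rsad2, which makes a chain-terminating nucleotide, did not pass at 8 weeks. Ifit3 ranged from 2.19 to 6.91 TPM with a median of 3.74 TPM in CAC, against 2.64, 2.74, 3.24, 4.96 and 4.14 TPM in NCAC and 3.03, 3.84, 2.85, 3.15 and 3.57 TPM in Con. Rsad2 ranged from 0.833 to 6.81 TPM with a median of 1.45 TPM in CAC, against 1.32, 2.01, 1.86, 1.000 and 1.43 TPM in NCAC and 1.58, 2.23, 1.597, 1.24 and 1.35 TPM in Con. For both, CAC libraries spread to either side of the other arms. The highest Rsad2 value came from CAC library 3, which was also highest for Isg15 and lowest for Ifitm1, Ifitm2, Ifitm3, Oas2 and Trim30a among the 7 libraries. Without that library 13 members were still called against Con and 14 against NCAC. The shares of all genes are not given for that fit. At 8 weeks the differences from Con were 0.05 (SE 0.20, adjusted p = 0.855) for Ifit1, -0.14 (SE 0.15, adjusted p = 0.438) for Ifit2, 0.20 (SE 0.28, adjusted p = 0.571) for Ifit3 and 0.10 (SE 0.22, adjusted p = 0.734) for Rsad2. At 6 weeks the same 4 genes stood at -0.41, -0.42, -0.55 and -0.51, with adjusted p of 0.0579 to 0.186. Ifit2 was lower in CAC at 6 weeks after rescaling, at -0.55 (adjusted p = 0.0125) against Con and -0.49 (adjusted p = 0.0239) against NCAC. All 5 CAC libraries lay below all 5 NCAC libraries for Ifit2 at 6 weeks, which 1.69% of all genes did.

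**Figure D3:**
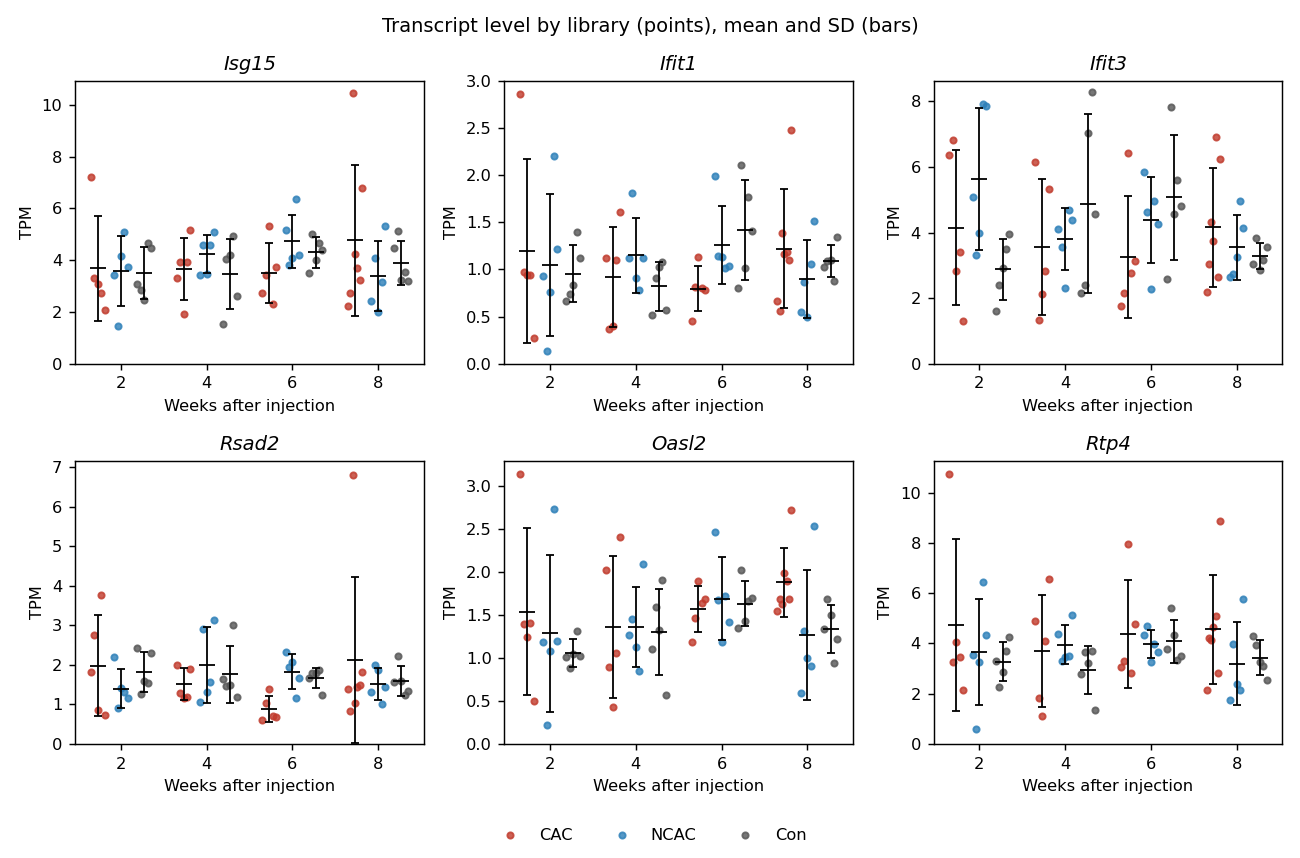
TPM of Isg15, Ifit1, Ifit3, Rsad2, Oasl2 and Rtp4 in each library (points) with the mean and SD of each group (bars), for CAC (red), NCAC (blue) and Con (grey) at each week. The arms overlap at every week, and single libraries such as CAC library 3 at 8 weeks for Rsad2 (6.81 TPM) lie far above their group.

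Of the membrane restriction factors, Ifitm1, Ifitm2 and Ifitm3 were higher in CAC than in Con at 8 weeks. Bst2, the tetherin that holds budding virions, did not pass. The Ifitm proteins sit in plasma and endosomal membranes and block fusion of entering viruses; their genes lie close together on chromosome 7 and are close paralogs. Ifitm1 (chromosome 7, 140967221 to 140969825) ranged from 2.05 to 10.6 TPM with a median of 4.31 TPM in CAC at 8 weeks, against 0.7504, 0.391, 2.703, 0.981 and 0.885 TPM in NCAC and 0.525, 0.774, 1.08, 1.24 and 1.15 TPM in Con. Every CAC library exceeded every Con library, and NCAC library 3 alone reached into the CAC range. The difference was 1.49 (SE 0.26, adjusted p = 7.22e-06) from Con and 1.43 (SE 0.26, adjusted p = 2.17e-05) from NCAC, the largest of any member in both comparisons.

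Ifitm2 (chromosome 7, 140954837 to 140955987) was far more abundant. It ranged from 155 to 346 TPM with a median of 251 TPM in CAC, against 108, 114, 109.6, 131 and 154 TPM in NCAC and 99.9, 116, 118, 105 and 106 TPM in Con. The CAC libraries lay above both other arms without overlap, although the lowest of them was within 1 TPM of NCAC library 5. The difference was 1.20 (SE 0.14, adjusted p = 4.37e-09) from Con and 1.03 (SE 0.14, adjusted p = 1.87e-07) from NCAC. Ifitm3 (chromosome 7, 141009586 to 141010770) ranged from 89.2 to 148 TPM with a median of 119 TPM in CAC, against 41.8, 46.2, 49.7, 57.1 and 90.5 TPM in NCAC and 51.4, 61.7, 59.4, 51.00 and 52.6 TPM in Con. No CAC library reached down to Con, and 1 fell below NCAC library 5. The difference was 1.02 (SE 0.18, adjusted p = 8.56e-06) from Con and 1.03 (SE 0.18, adjusted p = 1.24e-05) from NCAC. Rescaled, the differences from Con were 1.26 (adjusted p = 6.1e-05) for Ifitm1, 0.84 (adjusted p = 3.44e-09) for Ifitm2 and 0.67 (adjusted p = 0.0002) for Ifitm3. Bst2 differed from Con by 0.42 (SE 0.26, adjusted p = 0.163).

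**Figure D4:**
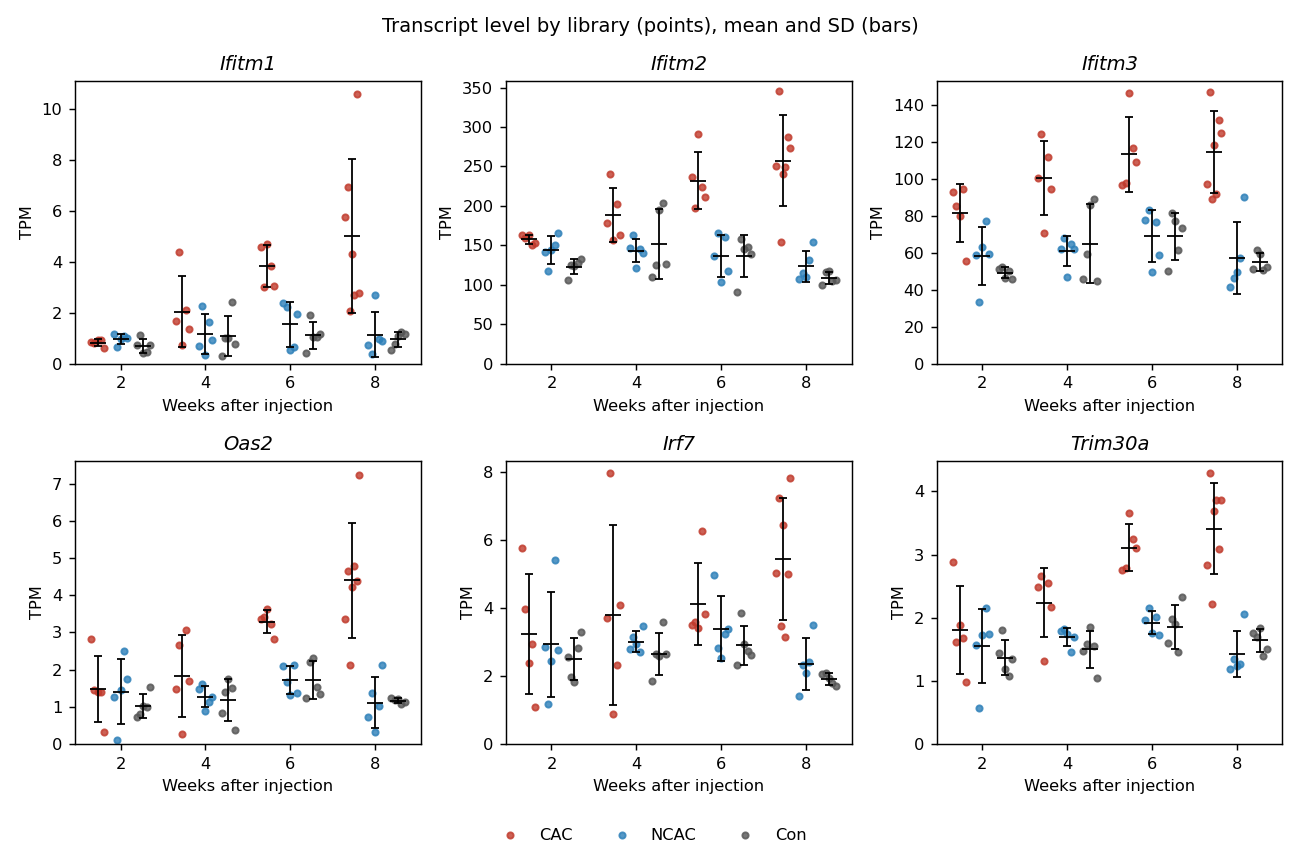
TPM of Ifitm1, Ifitm2, Ifitm3, Oas2, Irf7 and Trim30a in each library (points) with the mean and SD of each group (bars), for CAC (red), NCAC (blue) and Con (grey) at each week. At 8 weeks all 7 CAC libraries lie above all 5 Con libraries in each panel, and NCAC overlaps Con.

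In the family of interferon-inducible GTPases, which attack the vacuoles of intracellular microbes, 2 of 6 were higher in CAC than in Con at 8 weeks. Gbp2 (chromosome 3, 142620602 to 142638008) ranged from 12.4 to 20.96 TPM with a median of 17.3 TPM in CAC, against 7.16, 12.7, 9.402, 11.6 and 12.2 TPM in NCAC and 16.01, 8.03, 9.37, 14.2 and 8.89 TPM in Con. Con libraries 1 and 4 reached into the CAC range. The difference was 0.61 (SE 0.18, adjusted p = 0.00526) from Con and 0.67 (SE 0.18, adjusted p = 0.00365) from NCAC. Irgm1 (chromosome 11, 48861968 to 48871683), which also guides autophagy, ranged from 2.97 to 4.89 TPM with a median of 4.08 TPM in CAC, against 1.96, 2.95, 3.02, 2.04 and 3.36 TPM in NCAC and 3.57, 2.01, 2.43, 2.96 and 2.39 TPM in Con. It overlapped both arms, with 4 of 7 CAC libraries above all of them. The difference was 0.44 (SE 0.13, adjusted p = 0.00572) from Con and 0.44 (SE 0.13, adjusted p = 0.00774) from NCAC. After rescaling neither passed against Con, with 0.27 (adjusted p = 0.219) for Gbp2 and 0.16 (adjusted p = 0.297) for Irgm1, and against NCAC Gbp2 passed at 0.42 (adjusted p = 0.0494) and Irgm1 did not at 0.24 (adjusted p = 0.104). The call of Gbp2 against NCAC ended under quantile normalization, at 0.38 (adjusted p = 0.0810), and with mitochondrial transcripts removed, at 0.42 (adjusted p = 0.0760). Gbp3 stood lower: at 6 weeks all 5 CAC libraries lay below all 5 Con libraries, which 0.66% of all genes did, with a difference of -0.57 (SE 0.22, adjusted p = 0.0508) on TPM and -0.76 (adjusted p = 0.0116) after rescaling. At 8 weeks Gbp3 differed from Con by -0.24 (SE 0.20, adjusted p = 0.321) on TPM and was lower after rescaling, at -0.53 (adjusted p = 0.0322). Gbp7, Igtp and Iigp1 did not pass in any comparison. The Gbp genes are a multigene family, so their single values are uncertain.

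Of the 6 other tested members 3 were higher in CAC than in Con at 8 weeks. Trim30a, which restrains inflammatory signalling (chromosome 7, 104409025 to 104465193), ranged from 2.22 to 4.29 TPM with a median of 3.69 TPM in CAC, against 1.19, 1.35, 1.23, 1.27 and 2.06 TPM in NCAC and 1.76, 1.698, 1.84, 1.38 and 1.51 TPM in Con. The CAC libraries were above both arms without overlap. The difference was 0.73 (SE 0.13, adjusted p = 1.17e-05) from Con and 0.86 (SE 0.13, adjusted p = 8.41e-07) from NCAC, and 0.47 (adjusted p = 0.0016) from Con after rescaling; other Trim30 genes are near copies.

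Ifi35 (chromosome 11, 101448407 to 101458698), a leucine zipper protein, ranged from 10.8 to 17.6 TPM with a median of 15.2 TPM in CAC, against 6.45, 10.2, 8.69, 10.3 and 12.7 TPM in NCAC and 8.85, 8.62, 9.59, 8.18 and 6.96 TPM in Con. Con lay below every CAC library, and NCAC library 5 did not. The difference was 0.71 (SE 0.16, adjusted p = 0.000246) from Con and 0.56 (SE 0.16, adjusted p = 0.00476) from NCAC, of which the first passed after rescaling at 0.38 (adjusted p = 0.0284) and not with mitochondrial transcripts removed (adjusted p = 0.0608), and the second did not pass after rescaling at 0.31 (adjusted p = 0.0804). Parp14 (chromosome 16, 35832874 to 35871544), an ADP-ribosyltransferase, ranged from 3.63 to 6.403 TPM with a median of 4.72 TPM in CAC, against 2.34, 2.68, 2.38, 2.83 and 3.91 TPM in NCAC and 3.01, 3.08, 3.299, 2.91 and 3.44 TPM in Con. It too was higher in every CAC than in every Con library, by 0.42 (SE 0.12, adjusted p = 0.00417), and by 0.55 (SE 0.12, adjusted p = 0.000523) over NCAC. Rescaled, its difference from Con was 0.13 (adjusted p = 0.324). Ifi27, by far the most abundant member with group means of 917 to 1219 TPM, differed from Con by 0.10 (SE 0.08, adjusted p = 0.316) on TPM and was lower after rescaling, at -0.26 (adjusted p = 0.0177). Rtp4 and Xaf1 did not pass in any comparison.

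At 8 weeks the 7 CAC libraries lay above all 5 Con libraries for 8 members, Irf7, Oas2, Ifitm1, Ifitm2, Ifitm3, Ifi35, Parp14 and Trim30a, where 14.6% of all genes did so. Against NCAC this held for Oas2, Ifitm2 and Trim30a, where 6.82% of all genes did.

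Fewer members were called at the earlier weeks. At 2 weeks 1 of 32 members, Ifitm3, was higher in CAC than in Con, where 4.58% of all genes were. Ifitm3 had 93.2, 85.5, 80.3, 94.8 and 55.8 TPM in CAC, against 51.3, 52.4, 46.4, 50.1 and 46.04 TPM in Con. All CAC libraries lay above all Con libraries, as they did for Ifitm2 as well and for 8.06% of all genes. The difference was 0.70 (SE 0.19, adjusted p = 0.0259). The call was lost on leaving out any of CAC libraries 1, 2 and 4 and Con libraries 1, 3 and 5 (adjusted p = 0.0542 to 0.114). After rescaling Ifitm3 was again the 1 member called, where 4.08% of all genes were higher. Skeletal muscle and macrophage markers moved with this comparison, 11 of 12 muscle genes and 7 of 13 macrophage genes being higher in CAC. The muscle genes summed to 1416 to 15750.4 TPM in CAC and 88.9 to 2599.8 TPM in Con, and the macrophage genes to 180.2 to 273 TPM in CAC and 101 to 145 TPM in Con; their part in the difference was not tested.

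At 4 weeks Ifitm3 was again the only member called, where 0.819% of all genes were higher in CAC than in Con. It had 101, 125, 70.8, 112 and 94.6 TPM in CAC, against 45.7, 59.7, 86.1, 89.04 and 44.7 TPM in Con. Con libraries 3 and 4 reached into the CAC range. The difference was 0.66 (SE 0.19, adjusted p = 0.0392), and 0.74 (adjusted p = 0.00157) after rescaling. The call was lost on leaving out any of CAC libraries 1, 2 and 4 and Con libraries 1 and 5 (adjusted p = 0.0612 to 0.165). Con libraries 3 and 4 had a mitochondrial share of 39.6% and 39.7%. Without both of them 1 member was called, where 0.636% of all genes were higher. The call also ended with no filter on low values (adjusted p = 0.0582) and when the fit held the compared groups alone (adjusted p = 0.578). Rescaling added Ifitm2 at 0.42 (adjusted p = 0.0136) and Trim30a at 0.41 (adjusted p = 0.0409), where 3.23% of all genes were higher.

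At 6 weeks 5 members were higher in CAC than in Con, where 20.7% of all genes were, and 4 were higher than in NCAC, where 5.82% were. Ifitm1 had 4.57, 2.99, 4.701, 3.83 and 3.03 TPM in CAC, against 2.37, 2.22, 0.522, 0.638 and 1.94 TPM in NCAC and 0.419, 1.92, 1.04, 1.03 and 1.15 TPM in Con. Ifitm2 had 236, 197, 291, 224 and 212 TPM in CAC, against 136, 165, 104, 161 and 117 TPM in NCAC and 90.3, 158, 146, 148 and 139 TPM in Con. Ifitm3 had 96.7, 98.2, 147, 117 and 109 TPM in CAC, against 77.97, 83.1, 49.8, 76.6 and 58.7 TPM in NCAC and 50.5, 81.9, 77.3, 61.7 and 73.6 TPM in Con. In these 3 genes every CAC library was above every library of either other arm. The differences from Con were 1.21 (SE 0.28, adjusted p = 0.00156) for Ifitm1, 0.78 (SE 0.16, adjusted p = 0.000286) for Ifitm2 and 0.71 (SE 0.19, adjusted p = 0.00669) for Ifitm3. From NCAC they were 0.99 (SE 0.28, adjusted p = 0.0163), 0.77 (SE 0.16, adjusted p = 0.000603) and 0.71 (SE 0.19, adjusted p = 0.0123) in the same order. The call of Ifitm1 against NCAC was lost on leaving out CAC library 1 or either of NCAC libraries 3 and 4 (adjusted p = 0.0529 to 0.0755), and that of Ifitm3 without NCAC library 3 (adjusted p = 0.0601).

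Trim30a at 6 weeks had 2.76, 2.78, 3.67, 3.24 and 3.11 TPM in CAC, against 1.96, 2.15, 1.76, 2.01 and 1.73 TPM in NCAC and 1.599, 1.98, 1.91, 1.45 and 2.33 TPM in Con. Oas2 had 3.37, 3.41, 3.63, 3.23 and 2.81 TPM in CAC, against 2.11, 1.67, 1.33, 2.12 and 1.38 TPM in NCAC and 1.24, 2.202, 2.32, 1.53 and 1.33 TPM in Con. Both separated CAC from the other arms without overlap. Trim30a differed by 0.53 (SE 0.14, adjusted p = 0.00543) from Con and 0.49 (SE 0.14, adjusted p = 0.0187) from NCAC, the second call ending without CAC library 3 (adjusted p = 0.0540). Oas2 differed by 0.67 (SE 0.25, adjusted p = 0.0438) from Con and 0.66 (SE 0.25, adjusted p = 0.088) from NCAC. Its call against Con was lost on leaving out any of CAC libraries 1, 2, 3 and 4 and Con libraries 1, 4 and 5 (adjusted p = 0.0672 to 0.116), and after rescaling, at 0.52 (adjusted p = 0.171). With mitochondrial transcripts removed the calls of Trim30a against Con (adjusted p = 0.141) and against NCAC (adjusted p = 0.0652) and of Ifitm3 against Con (adjusted p = 0.0800) ended as well. Of the 14181 genes tested with that removal, 491 were higher and 881 lower than in Con. Against NCAC 598 were higher and 1123 lower. In all, 7 members separated CAC from Con without overlap in the upward direction, where 15.2% of all genes did, the other two being Irf9 and Stat2, and 5 separated CAC from NCAC, where 6.41% did. After rescaling 4 members were higher and 2 lower than in Con at 6 weeks, where 5.18% of all genes were higher and 3.16% lower, and 4 were higher and 1 lower than in NCAC, where 5.6% were higher and 5.07% lower. The lower members were Ifit2 in both comparisons and Gbp3 against Con.

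How the gap between CAC and Con changed over the weeks was tested directly. It grew from 2 to 8 weeks for 3 of 32 members, where it grew for 10.2% of all genes: Ifitm1 by 1.37 (SE 0.38, adjusted p = 0.0151), Oas2 by 1.03 (SE 0.34, adjusted p = 0.0379) and Ifitm2 by 0.84 (SE 0.21, adjusted p = 0.00797). The call of Oas2 ended without any 1 of 13 of the 22 libraries (CAC libraries 2 and 5 of 2 weeks, CAC libraries 2, 5, 6 and 7 of 8 weeks, Con libraries 3, 4 and 5 of 2 weeks, Con libraries 1, 3, 4 and 5 of 8 weeks; adjusted p = 0.0514 to 0.0926) and after rescaling (adjusted p = 0.0831). With mitochondrial transcripts removed the change of Ifitm1 was 1.36 (adjusted p = 0.0531). Without CAC library 3 of 8 weeks 7 members passed, with no share of all genes given for that fit to read this against. For Ifitm3, whose difference was 0.70 at 2 weeks and 1.02 at 8 weeks, this change did not pass. From 2 to 6 weeks and from 6 to 8 weeks limma called 0 members, where 1.33% and 0.00795% of all genes were called. At an unadjusted p under 0.05 there were 3 higher and 1 lower, and 1 higher and 0 lower. All genes were not counted at that unadjusted threshold, so these numbers have no share to be read against.

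Within the CAC arm 7 of 32 members were higher at 8 than at 2 weeks, where 15% of all genes were: Ifitm1 by 1.58, Oas2 by 1.15, Ifitm2 by 0.67, Trim30a by 0.67, Irf7 by 0.67, Ifitm3 by 0.48 and Irf9 by 0.47. Mean Ifitm1 was 0.824 ± 0.1304 TPM, 2.04 ± 1.39 TPM, 3.82 ± 0.816 TPM and 5.01 ± 3.02 TPM at 2, 4, 6 and 8 weeks (SD, n = 5, 5, 5 and 7). The calls of Ifitm3, Irf7 and Irf9 ended without single libraries: Ifitm3 without CAC library 2, 3 or 5 of 2 weeks or 2, 4, 6 or 7 of 8 weeks (adjusted p = 0.0663 to 0.193), Irf7 without 3, 4 or 5 of 2 weeks or 2, 4, 6 or 7 of 8 weeks (adjusted p = 0.0524 to 0.211), and Irf9 without 2 or 5 of 2 weeks or 2, 5, 6 or 7 of 8 weeks (adjusted p = 0.0543 to 0.130). When the fit held the compared groups alone the same 3 calls ended (adjusted p = 0.0704 for Ifitm3, 0.129 for Irf7 and 0.103 for Irf9), as they did with mitochondrial transcripts removed (adjusted p = 0.0807 to 0.1003). Without CAC library 3 of 8 weeks 10 members passed, again with no share of all genes given for that fit. Irf7 differed by 0.44 without CAC library 5 of 2 weeks. In NCAC and in Con limma called 0 members between 8 and 2 weeks, where it called 0% and 0.0318% of all genes. At an unadjusted p under 0.05 there were 0 in NCAC, and 0 higher and 2 lower in Con, with all genes not counted at that threshold.

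No member passed between NCAC and Con at any week. Limma called 0 of 32 members, where it called at most 0.00795% of all genes, and at an unadjusted p under 0.05 there were 1, 2, 0 and 0 higher and 0, 0, 0 and 2 lower at 2, 4, 6 and 8 weeks. CAC against NCAC likewise had 0 members at 2 and 4 weeks, where 0.0397% and 0.588% of all genes were called. At an unadjusted p under 0.05 there were 1 higher and 1 lower at 2 weeks, and 2 higher and 1 lower at 4 weeks. For neither pair of arms were all genes counted at the unadjusted threshold, so no excess can be read from these numbers. After rescaling Ifitm3 was higher in CAC than in NCAC at 4 weeks, by 0.63 (adjusted p = 0.0159), as were 0.85% of all genes. All 5 CAC libraries lay above all 5 NCAC libraries for Ifitm3 at 4 weeks, which 2.07% of all genes did.

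The members varied more between libraries of the same group than most genes. The median within-group SD on the log2 scale was 0.316 for the 32 members and 0.207 for all tested genes. Among members it ran from 0.14 for Ifi27 to 0.54 for Igtp. Members and all genes were not matched for transcript level, so a part of level in this gap was not tested. In single libraries many members were high or low together. CAC library 1 of 2 weeks was the highest of its group for 26 of 34 members (76.5%), against 24.8% of all tested genes, and CAC library 5 of 2 weeks was the lowest for 29 (85.3%), against 32.5%. CAC library 3 of 6 weeks was highest for 29 (85.3%), against 33.3%. NCAC library 5 of 8 weeks was highest for 25 (73.5%), against 31.2%, and NCAC library 2 of 2 weeks lowest for 33 (97.1%), against 61% of all genes. The members of 1 library share its RNA and depth, so these counts describe libraries and carry no test.

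The interferons themselves were almost undetected. Of 20 interferon genes 15, Ifnb1 and Ifna1 among them, were listed at 0 in all 62 libraries, and the highest value of any was 0.121 TPM, for Ifng, the interferon gamma gene. Transcripts upstream of the members were also higher in CAC than in Con at 8 weeks, as were 52.1% of all genes. They were 4 of 5 tested receptor chains and all 5 genes of the JAK-STAT core. All 9 tested adaptors and kinases of nucleic acid sensing and all 5 tested feedback regulators were higher too. After rescaling 1, 3, 3 and 2 of them were higher, in the same order, where 13.4% of all genes were higher and 13.1% lower. Genes of these lists that were lower on that scale are not given here. Ifngr1, the ligand-binding chain of the interferon gamma receptor, stood at 78.2 ± 21.6 TPM (SD, n = 7) in CAC, 42.4 ± 5.88 TPM (n = 5) in NCAC and 33.1 ± 3.36 TPM (n = 5) in Con, a difference of 1.17 (SE 0.16, adjusted p = 1.49e-07) from Con. Stat3, best known for signalling from IL-6, differed by 1.82 (SE 0.19, adjusted p = 1.58e-10), and Socs3, a feedback inhibitor of cytokine signalling, by 2.45 (SE 0.26, adjusted p = 1.53e-10). The DNA-sensing adaptor Tmem173, known as STING, differed by 1.45 (SE 0.19, adjusted p = 5.1e-08) and the Toll-like receptor adaptor Myd88 by 1.07 (SE 0.20, adjusted p = 2.12e-05).

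A wider list of 74 other interferon-stimulated genes, 53 of them tested, held both higher and lower genes. At 8 weeks 32 (60.4%) were higher and 3 lower in CAC than in Con. Of all 12581 tested genes, 52.1% were higher there and 248 genes lower. After rescaling 14 were higher and 6 lower, where 13.4% of all genes were higher and 13.1% lower. At 6 weeks 14 (26.4%) were higher and 4 lower, where 20.7% of all genes were higher and 123 of 12581 genes lower. After rescaling 8 were higher and 7 lower at 6 weeks, where 5.18% of all genes were higher and 3.16% lower. The largest differences from Con at 8 weeks were those of the DNA-binding gene Ifi205 (2.20), Plac8 (2.03) and Ifi204 (1.60). The 3 lower genes, named after their values were seen, were the T cell attracting chemokine Cxcl9, a target of interferon gamma, at -0.83 (SE 0.24, adjusted p = 0.00331), the kinase gene Cmpk2 at -0.62 (SE 0.17, adjusted p = 0.00181) and the GTPase gene Gbp4 at -0.50 (SE 0.18, adjusted p = 0.0186). Cxcl9 stood at 0.965 ± 0.418 TPM (SD, n = 7) in CAC, 2.24 ± 0.811 TPM (n = 5) in NCAC and 2.63 ± 1.43 TPM (n = 5) in Con.

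Markers of other cells also differed between the arms. Of 13 macrophage markers 12 were higher in CAC than in Con at 8 weeks, where 52.1% of all genes were, and 13 were higher than in NCAC, where 37.3% were. Against Con 8 were higher at 6 weeks, where 20.7% of all genes were, and 7 at 2 weeks, where 4.58% were. None was lower in these comparisons, and after rescaling 11 and 12 were higher at 8 weeks than in Con and NCAC (13.4% and 12.7% of all genes), and 6 and 7 were higher than in Con at 6 and 2 weeks (5.18% and 4.08%). Their summed level at 8 weeks was 266 to 654 TPM in CAC, 112 to 199.9 TPM in NCAC and 137 to 177 TPM in Con, and none of them was at 0. Of 6 tested markers of monocytes and neutrophils 5 were higher than in Con at 8 weeks on TPM and after rescaling, with a summed level of 27.1 to 61.9 TPM in CAC, 14.3 to 19.7 TPM in NCAC and 12.3 to 21.5 TPM in Con. Of 8 endothelial markers 4 were higher and 1 lower than in Con at 8 weeks, and 1 and 1 after rescaling, with a summed level of 179.9 to 281 TPM in CAC, 147 to 167 TPM in NCAC and 139 to 193 TPM in Con. Of 11 brown adipocyte genes 2 were higher and 2 lower than in Con at 8 weeks, and 1 and 5 after rescaling. Of 9 markers of gland and surface epithelium 6 were lower in CAC than in Con at 8 weeks, and of 4 tested B cell markers 1 was lower. Of all 12581 tested genes 248 were lower there. The part of these cells in the differences of the members was not tested. In whole tissue a change in the number of cells of a type and a change in RNA per cell cannot be told apart.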

How the data were processed

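RNA from brown adipose tissue was extracted with Trizol and sequenced as stranded mRNA libraries, per the labels' protocols. The authors deposited TPM values per gene symbol, 1 column per library. The build was mm10, per the submitters' processing notes; the aligner and quantifier are not given in the sources used here. One sample number is shared by a CAC and a Con title at 4 weeks, and an extraction text names another tumour model.

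Genes that reached 1 TPM in 5 or more of the 62 libraries were tested on log2(TPM + 1) with limma 3.58.1 (R 4.3.3; trended variance, all 12 groups in 1 fit, 18 contrasts), with Benjamini-Hochberg adjustment within each contrast and a threshold of 0.05. The code was tested on simulated data. P-values measure the spread between the samples the labels call biological replicates. Rescaling divided each library by its median ratio to the gene-wise geometric mean.

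Members and lists were chosen with earlier results of these data known. Library values are given for the called members with the largest differences between CAC and Con at 8 weeks (at most 12), and for Ifih1, Isg15, Ifit3 and Rsad2, chosen after their values were seen. From each pathway list at most 3 called genes with the largest differences are named. Alternatives were other pseudocounts, filters, scalings, library weights, fits of the compared groups, a replicate block and leaving out each library. Gene positions are from the mm10 annotation. Figures were drawn with matplotlib 3.10.9 (Python 3.11.15). One gene of the pathway lists is not reported here.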

Additional observations from a re-analysis of the deposited data

Results flagged for a closer look

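In 180 groups checked (15 genes in 12 groups of samples), 12 had a library whose gap to its nearest neighbour was large for the range of the group, and chance gives about 1 in 20. Isg15, Ifit3 and Rsad2 were chosen after their values were seen, and genes measured in 1 library are not independent. The number flagged is therefore a description and carries no test. In NCAC at 8 weeks the highest Ifitm1 value was 2.70 TPM in library 3, where the next was 0.981 TPM. Library 5 of that group was high for Trim30a, at 2.06 TPM with 1.35 TPM next, and for Irf9, at 5.66 TPM with 3.61 TPM next. At 6 weeks the highest Irf7 value in CAC was 6.25 TPM in library 4 and the highest Stat2 value was 12.3 TPM in library 3. Con library 1 of 6 weeks was low for Ifitm2 at 90.3 TPM, Stat2 at 4.57 TPM and Irf9 at 3.47 TPM. NCAC library 3 of 4 weeks was low for Ifitm3 at 46.9 TPM. Isg15 reached 7.22 TPM in CAC library 1 of 2 weeks, with 3.32 TPM next. Rsad2 reached 6.81 TPM in CAC library 3 of 8 weeks, with 1.81 TPM next, and 3.01 TPM in Con library 4 of 4 weeks.

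The difference between CAC and Con changed between 2 and 8 weeks for Ifitm1 by 1.37, for Oas2 by 1.03 and for Ifitm2 by 0.84 on the log2 scale, by limma's test of the change itself. These were 3 of 32 members, where the difference grew for 10.2% of all genes. The call of Oas2 ended without any 1 of 13 of the 22 libraries and after rescaling (adjusted p = 0.0831). That of Ifitm1 ended with mitochondrial transcripts removed (adjusted p = 0.0531).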

How the results depend on the processing

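No member's called difference reversed: with 1 library left out 508 of 572 calls were kept and 64 lost, and under other settings 342 of 402 were kept and 60 lost, of which 20 of 47 with mitochondrial genes removed, 11 of 47 each with rescaling and quantile normalization, and 0 of 47 with library weights. The numbers of members called changed by over 1.5 times as follows, and the cause was not tested. With only the compared groups fitted, CAC against Con gave 2, 0 and 9 at 2, 4 and 6 weeks, CAC against NCAC 7 at 6 weeks, the change from 2 to 6 weeks 1, and 8 against 2 weeks 4 in CAC and 1 in Con. The shares of all genes called there were 9.59%, 0.0238%, 19.9%, 7.12%, 4.22%, 9.3% and 10.3%, in the same order. With library weights, CAC against Con gave 2, 2 and 8 at 2, 4 and 6 weeks, CAC against NCAC 1, 1 and 10, the arms NCAC and Con differed in 1 member at 2 weeks, the changes from 2 to 6, 2 to 8 and 6 to 8 weeks 3, 11 and 1, and Con at 8 against 2 weeks 2. Library weights called 15.8%, 1.29% and 30.4% of all genes against Con, and 3.89%, 1% and 19.4% against NCAC. They called 6.62% between NCAC and Con, 11.7%, 39.7% and 3.55% for the 3 changes, and 32.3% within Con. At 4 weeks CAC against Con gave 0 with no filter and 3 with rescaling, quantile normalization or mitochondrial genes removed (the last chosen after seeing the data), where CAC against NCAC gave 1 each. Of all genes 1.88%, 5.51%, 5.58% and 5.33% were called against Con in these settings. Against NCAC the last 3 settings called 0.962%, 0.858% and 0.91%. Quantile normalization gave 1 for the change from 2 to 6 weeks, and removing mitochondrial genes 1 for that from 2 to 8 weeks. There 2.6% and 8.4% of all genes were called. A filter at 5 TPM, which tests fewer genes, gave 3 and 7 against Con and 2 and 7 against NCAC at 6 and 8 weeks, and 4 for CAC at 8 against 2 weeks. That filter called 27.5%, 59.9%, 8.2%, 44.2% and 21.1% of all genes it tested, in the same order. With the replicate block, CAC at 8 against 2 weeks gave 4, where 12.1% of all genes were called. The counts at 8 weeks did not change by over 1.5 times with the block. They were 12 against Con and 12 against NCAC, where 46.2% and 29.7% of all genes were called. Replicates 6 and 7 exist only in CAC at 8 weeks, so the block takes up both of those libraries. Same-numbered samples did not deviate together (r = -0.39 to 0.48; 0 of 12 comparisons had every pair over 0.1, and 12 of 60 samples fitted their own number best). Leaving out 1 library gave 0 to 1, 0 to 2, 4 to 5 and 12 to 14 against Con and 0, 0 to 1, 2 to 4 and 12 to 15 against NCAC at 2, 4, 6 and 8 weeks, 2 to 7 for the change from 2 to 8 weeks, and 4 to 10 in CAC and 0 to 1 in Con at 8 against 2 weeks. The shares of all genes called are not given for the fits that left out 1 library. Depth is unknown, so counting error could not be given, and members under a few TPM are the least certain.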
